A study of Mus musculus with 24 samples.

Results

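The 10 genes described here encode proteins of the cardiac Z-disc and its mechanical stress sensors, namely Myot, Fhl1, Fhl2, Ankrd1, Csrp3, Xirp1, Xirp2, Flnc, Des and Nrap. They are 10 of the 25229 gene symbols in the count table, taken by name, and all 10 were among the 13571 genes with enough counts to be tested. The members were chosen by name with group differences in these same counts already known, so their levels and fold changes are given as a description, without p-values.

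The hearts came from male C57BL/6 mice, and poly-A RNA of the septum together with the left ventricle was sequenced in 24 libraries, 6 in each of 4 groups. Transverse aortic constriction (TAC) narrows the aorta so that the left ventricle pumps against a higher pressure, and sham surgery is its control. Sham/Air and TAC/Air mice breathed HEPA filtered air after surgery, and Sham/Benzene and TAC/Benzene mice breathed 50 ppm benzene. In all 4 groups, exposure began after 1 week of recovery and lasted 6 weeks, on 5 days of each week and 6 hours of each day. No transgene or deletion is named for any group, and the age of the mice is not given in the sources used here.

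The Z-disc is the protein plate at which the actin filaments of neighbouring sarcomeres are anchored and crosslinked. It carries force along and across the muscle fibre, and it holds LIM domain, ankyrin repeat and filamin proteins that are known to change place or abundance when the muscle is stretched. Several of them move between the sarcomere and the nucleus, and a raised Ankrd1 transcript is a textbook sign of a loaded ventricle. Xin repeat proteins, filamin C and Nrap also sit at the intercalated disc, where neighbouring cardiomyocytes are joined, and desmin filaments tie the Z-discs to each other and to the cell surface.

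Total counts ran from 4170660 to 14632231 per library, and the lowest was that of Sham/Air replicate 1. This library stood apart from the rest: its rank correlations with the other libraries over genes with a count were 0.923 to 0.946, against 0.974 to 0.989 among the other 23 libraries. The fold changes that it moves most are given with and without it below. In each group, libraries also differed along the GC content of the transcripts, with rank correlations between a library's deviation and GC content from -0.75 to 0.58 (Sham/Air), -0.49 to 0.59 (Sham/Benzene), -0.53 to 0.54 (TAC/Air) and -0.21 to 0.56 (TAC/Benzene). The labels do not name the mouse behind each library, and 6 pairs of libraries within groups were closer to each other (variance 1.81 to 2.24 times that of counting) than any other pair (2.58 times or more). The p-values given for other genes therefore measure only the spread between these libraries, which may be technical in part. Nppa and Myh7, genes known to be raised in the loaded ventricle, separated the surgery labels: Nppa ran from 155 to 384 CPM (read counts scaled to a common library size) in the sham libraries and from 2965 to 4779.9 CPM in the TAC libraries, and Myh7 from 266 to 472 CPM and from 2640.04 to 3759 CPM.

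Markers of ventricular muscle were high in every library. The 8 ventricular cardiomyocyte markers summed to 65578 to 102283 CPM in sham and to 49967 to 60109 CPM in TAC libraries, and none of the 8 was at 0. Several members are also expressed in skeletal muscle, but the 8 skeletal muscle markers summed to no more than 5.42 CPM in any library, with Myh1, Myh2, Myh4 and Actn3 under 0.5 CPM in every group. The 5 smooth muscle markers summed to between 286 and 374 CPM in Sham/Air, 285 and 354 in Sham/Benzene, 257 and 321 in TAC/Air, and 248 and 282 in TAC/Benzene. The 6 fibroblast markers summed to 1457 to 3178 CPM in Sham/Air, where the highest value was that of replicate 1, and to 1483 to 1902 CPM in Sham/Benzene. After TAC the sums were 3072 to 3589.7 CPM in air and 2749 to 3170.02 CPM in benzene. Of the 6 markers, 4 were higher past the threshold (edgeR adjusted p under 0.05) in each exposure. In the same comparisons, 6 of 8 ventricular cardiomyocyte markers in air and 5 of 8 in benzene were lower after TAC. Of all tested genes, 16.2% passed after TAC in air and 16.6% in benzene. For benzene against air, 0.0221% passed in sham and 0.582% in TAC hearts. Of 5 smooth muscle markers, 1 was higher and 1 lower after TAC in air, and 1 lower in benzene. Of 3 tested skeletal muscle markers, 1 was lower in each exposure. Of 4 endothelial markers, 1 was higher after TAC in benzene. The 4 macrophage markers summed to 343 to 466 CPM in the sham libraries, 458 to 499.8 CPM in TAC/Air and 397 to 451 CPM in TAC/Benzene. Of these 4, 2 were higher after TAC in air, 1 was lower after TAC in benzene, and 1 was lower for benzene in TAC hearts. Of the 4 atrial markers, Bmp10 was under 0.5 CPM in every group. Their sum ran from 30.6 to 216 CPM in Sham/Benzene, highest in replicate 4, against at most 75.1 CPM in the other groups. All 3 tested atrial markers were lower after TAC in benzene, and none passed after TAC in air. The 4 lung epithelium markers summed to 6.82 to 10.3 CPM in Sham/Air and to at most 2.07 CPM in the other groups. The 2 that were tested were both lower after TAC in air and for benzene in sham hearts, and 1 was lower after TAC in benzene. The part of these shifts in the values of the members was not tested, and in bulk tissue fewer cells of a type and less RNA per cell cannot be told apart.

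Compared per length of transcript, as CPM per kilobase of the longest annotated transcript, the members spanned a wide range of levels in the control ventricle. In Sham/Air without replicate 1 (n = 5), Fhl2 had the highest level, 1373 ± 34.8 (SD) CPM per kilobase, followed by Ankrd1 at 975 ± 32.9, Des at 689 ± 66.7 and Csrp3 at 577 ± 29.6. Nrap was at 134 ± 7.02, Xirp2 at 63.6 ± 9.18 and Fhl1 at 60.9 ± 7.83 CPM per kilobase. The lowest levels were those of Myot at 39.5 ± 2.74, Flnc at 36.6 ± 3.70 and Xirp1 at 33.4 ± 3.10 CPM per kilobase. Neighbours in this order did not overlap between libraries except for Xirp2 with Fhl1, Myot with Flnc, and Flnc with Xirp1. With replicate 1 included, 7 of the 9 neighbouring pairs overlapped. Overlap reflects only the spread between libraries, while the transcript length used shifts all libraries of a gene alike. Which transcript of each gene was expressed was not tested, so the order holds only for these lengths.

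The order changed at the top after TAC. In TAC/Air, Ankrd1 had the highest level, 2841 ± 191 CPM per kilobase (n = 6), above Fhl2 at 1221 ± 92.7, with no overlap between the libraries. In TAC/Benzene, Ankrd1 stood at 3123 ± 102 CPM per kilobase, and Fhl2 at 1234 ± 18 overlapped with Des at 1188 ± 104. Below Csrp3 came Xirp2, at 182 ± 24.6 in TAC/Air and 260.3 ± 17.5 CPM per kilobase in TAC/Benzene, and overlapped with the member below it in both groups.

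**Figure D1:**
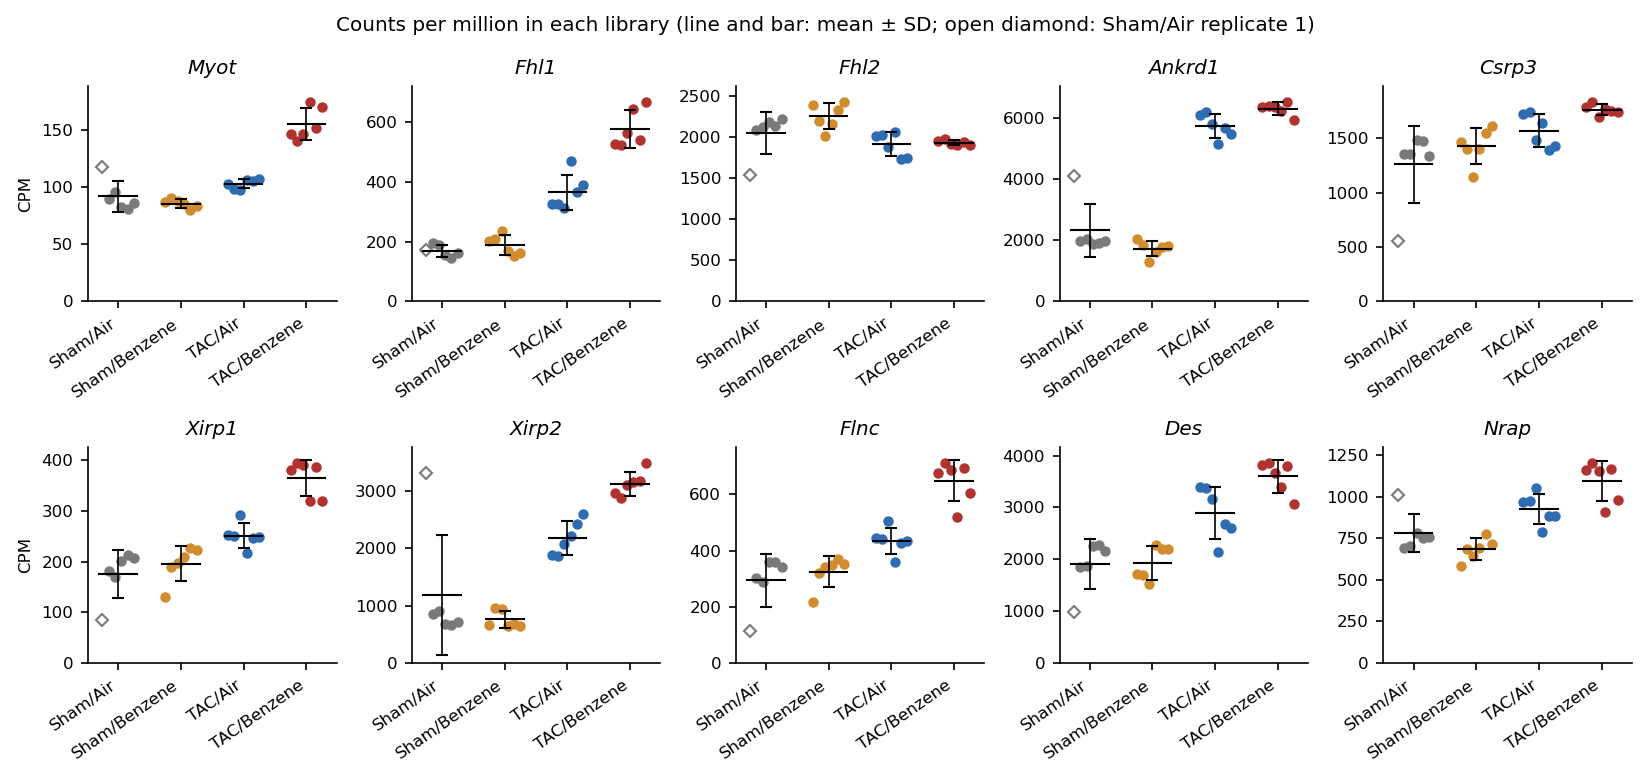
CPM (vertical axes, starting at 0) of each member in each of the 24 libraries, by group, with the mean and SD of the 6 libraries as a line and bar. The open diamond is Sham/Air replicate 1, which stands far from the other Sham/Air libraries for Ankrd1 (4099 CPM), Xirp2 (3301 CPM) and Csrp3 (553 CPM); TAC/Benzene has the highest group mean for 9 of the 10 members.

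The group mean was highest in TAC/Benzene for 9 of the 10 members and in Sham/Benzene for Fhl2, with or without Sham/Air replicate 1. All 10 members passed the filter on low counts through every group, since the lowest value of any member in any library was 79.9 CPM, for Myot in Sham/Benzene replicate 5. The members are described in turn, first those that shuttle or sense stretch, then the scaffold and crosslinking proteins. Log2 fold changes, from a model across all 24 libraries, are given ± SE.

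Ankrd1 encodes a titin-binding ankyrin repeat protein, also known as CARP, that sits at the I-band and can enter the nucleus. In sham hearts its median was 1989.7 CPM in air (1897 to 4099) and 1790.0 CPM in benzene (1294 to 2038). After TAC its median was 5747 CPM in air (5168 to 6202) and 6370.4 CPM in benzene (5933 to 6532). Every TAC library was above every sham library, while the 2 TAC groups overlapped. The highest sham value, 4099 CPM, was that of Sham/Air replicate 1, and the other 5 Sham/Air libraries lay between 1897 and 2060.1 CPM. The log2 fold change of TAC was 1.30 ± 0.15 in air, or 1.54 ± 0.08 without that replicate, and 1.87 ± 0.15 in benzene. Benzene against air gave 0.14 ± 0.15 in TAC and -0.43 ± 0.15 in sham hearts, the latter -0.19 ± 0.08 without Sham/Air replicate 1.

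Upstream sequence was read from the RefSeq table of mouse promoters (GRCm38.p6), a build other than that of the counts, for the 8 members that it holds. Myot and Xirp1 are not among them. The 250 bases upstream of the annotated start are printed for 4 members, for the 3 with a log2 fold change over 1 after TAC in benzene and a motif match, and for Fhl2 as the member with the opposite sign. The searches, on both strands, were for the MCAT element (CATTCC), which TEAD factors bind, the CArG box of serum response factor, the MEF2 box and the AP-1 site (TGACTCA). No 2 matches in the printed windows overlapped, and capitals mark them. Of all 32851 windows in the table, 12.6% held an MCAT match, 1.47% a CArG box, 2.92% a MEF2 box and 4.46% an AP-1 site, in the same 250 bases.
Ankrd1, chr19:36119845-36120094, - strand: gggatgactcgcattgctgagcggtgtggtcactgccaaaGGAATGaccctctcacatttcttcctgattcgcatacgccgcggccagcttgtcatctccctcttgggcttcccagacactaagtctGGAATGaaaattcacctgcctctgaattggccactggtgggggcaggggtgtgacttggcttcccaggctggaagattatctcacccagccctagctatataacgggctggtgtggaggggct
Fhl1, first of 2 starts, chrX:56779433-56779682, + strand: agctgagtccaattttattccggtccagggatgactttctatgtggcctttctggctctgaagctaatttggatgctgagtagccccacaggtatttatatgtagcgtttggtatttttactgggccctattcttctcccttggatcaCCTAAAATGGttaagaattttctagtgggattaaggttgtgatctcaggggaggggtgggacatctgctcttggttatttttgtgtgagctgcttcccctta
Xirp2, chr2:67445752-67446001, + strand: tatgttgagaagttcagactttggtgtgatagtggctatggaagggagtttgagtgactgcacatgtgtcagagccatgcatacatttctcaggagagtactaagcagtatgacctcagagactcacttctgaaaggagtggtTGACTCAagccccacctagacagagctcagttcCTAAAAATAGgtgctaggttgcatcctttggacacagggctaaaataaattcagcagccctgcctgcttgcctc
Fhl2, first of 2 starts, chr1:43163962-43164211, - strand: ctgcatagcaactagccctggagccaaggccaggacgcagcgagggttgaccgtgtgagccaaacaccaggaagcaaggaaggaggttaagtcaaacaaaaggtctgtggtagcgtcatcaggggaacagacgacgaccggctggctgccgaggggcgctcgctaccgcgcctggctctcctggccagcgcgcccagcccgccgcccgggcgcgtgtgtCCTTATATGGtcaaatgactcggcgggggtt
The Ankrd1 window held 2 MCAT matches, beginning at -210 and -123 from the start. That of Fhl1 held a CArG box at -102, and that of Xirp2 an AP-1 site at -107 and a MEF2 box at -74. The Fhl2 window held a CArG box at -31. Among the windows not printed, that of the second Fhl2 start held a CArG box at -96 and a MEF2 box at -31, and 1 of the 2 Flnc windows an MCAT match at -104. The other windows of the members, those of Csrp3, Des and Nrap, the second of Fhl1 and the first of Flnc, held none of the 4 motifs. These are matches of letters, and no binding was measured.

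Csrp3 encodes muscle LIM protein, a Z-disc and nuclear protein of striated muscle. Its median was 1356 CPM in Sham/Air (553 to 1484), 1434 CPM in Sham/Benzene (1143 to 1616), 1565 CPM in TAC/Air (1393 to 1745) and 1761 CPM in TAC/Benzene (1692 to 1834). The lowest value was that of Sham/Air replicate 1, and the other Sham/Air libraries lay between 1339.6 and 1484 CPM, overlapping with TAC/Air. TAC/Benzene lay above both sham groups and overlapped with TAC/Air. TAC gave a log2 fold change of 0.32 ± 0.15 in air, or 0.16 ± 0.07 without Sham/Air replicate 1, and 0.30 ± 0.15 in benzene. Of the members that were higher after TAC, Csrp3 had the smallest log2 fold change in benzene.

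Fhl1 encodes a LIM domain protein that binds titin at the I-band and is part of a stretch-sensing complex. Its median was 167 CPM in Sham/Air (144 to 194) and 186 CPM in Sham/Benzene (150.2 to 235). It was 346 CPM in TAC/Air (311 to 467) and 551 CPM in TAC/Benzene (521 to 666). The 2 sham groups overlapped, TAC/Air lay above both, and TAC/Benzene lay above TAC/Air in every library. After TAC the log2 fold change was 1.10 ± 0.12 in air, the same without Sham/Air replicate 1, and 1.62 ± 0.12 in benzene. For benzene the log2 fold change was 0.66 ± 0.12 in TAC and 0.15 ± 0.12 in sham hearts.

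Fhl2, a LIM domain protein of the same family that acts as a transcriptional cofactor and is abundant in the heart, did not follow this order. Its median was 2127 CPM in Sham/Air (1539.6 to 2219), 2258 CPM in Sham/Benzene (2016 to 2423), 1945 CPM in TAC/Air (1731 to 2057) and 1926 CPM in TAC/Benzene (1896 to 1969). In benzene every TAC library was below every sham library. In air the groups overlapped, but only through Sham/Air replicate 1, the lowest library of the 24, and the other 5 Sham/Air libraries (2078 to 2219 CPM) lay above all of TAC/Air. Relative to sham, the TAC log2 fold change was -0.10 ± 0.08 in air, or -0.18 ± 0.06 without that replicate, and -0.22 ± 0.08 in benzene. The log2 fold changes of the 2 related transcripts after TAC had opposite signs, above 0 for Fhl1 and below 0 for Fhl2. In the fit of all 24 libraries, that of Fhl2 did not pass the threshold in either exposure.

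Xirp2 encodes a Xin actin-binding repeat protein, also called myomaxin, of the Z-disc and intercalated disc. Its median was 784 CPM in Sham/Air (659.8 to 3301) and 675 CPM in Sham/Benzene (645 to 957). It was 2139 CPM in TAC/Air (1867 to 2598) and 3124 CPM in TAC/Benzene (2867 to 3474). Sham/Air replicate 1, at 3301 CPM, lay within TAC/Benzene, and the other 5 Sham/Air libraries reached no more than 903 CPM. Without it every TAC library was above every sham library, and TAC/Benzene lay above TAC/Air in every library. The log2 fold change of TAC was 0.88 ± 0.28 in air, or 1.51 ± 0.12 without Sham/Air replicate 1, and 2.04 ± 0.29 in benzene. Benzene against air gave 0.52 ± 0.28 in TAC hearts, and in sham hearts -0.64 ± 0.28, or -0.01 ± 0.11 without that library.

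Xirp1 encodes Xin, the smaller relative of Xirp2 at the intercalated disc and at sites of myofibril repair. Its median was 191 CPM in Sham/Air (85.8 to 213), 203 CPM in Sham/Benzene (131 to 228), 250.4 CPM in TAC/Air (217 to 292) and 384 CPM in TAC/Benzene (320.4 to 394). TAC/Benzene lay above the 3 other groups, TAC/Air lay above Sham/Air and the 2 sham groups overlapped. The lowest value, 85.8 CPM, was that of Sham/Air replicate 1. TAC gave a log2 fold change of 0.51 ± 0.16 in air, or 0.36 ± 0.11 without that replicate, and 0.90 ± 0.16 in benzene. For benzene the log2 fold change was 0.54 ± 0.15 in TAC hearts.

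Flnc encodes filamin C, the muscle filamin that crosslinks actin at the Z-disc, the costamere and the intercalated disc and binds Xin. Its median was 322 CPM in Sham/Air (113 to 360.3), 343 CPM in Sham/Benzene (218 to 369.8), 437 CPM in TAC/Air (360.2 to 505) and 683 CPM in TAC/Benzene (520.5 to 710.1). TAC/Benzene lay above the 3 other groups, while the lowest TAC/Air library, replicate 4, lay within the sham range. Sham/Air replicate 1 was lowest at 113 CPM, and the other 5 Sham/Air libraries started at 289 CPM. After TAC the log2 fold change was 0.56 ± 0.18 in air, or 0.39 ± 0.11 without Sham/Air replicate 1, and 1.00 ± 0.18 in benzene. Benzene against air gave 0.58 ± 0.18 in TAC hearts, and in sham hearts 0.14 ± 0.18, or -0.03 ± 0.11 without Sham/Air replicate 1.

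Myot encodes myotilin, an immunoglobulin domain protein that binds alpha-actinin and filamin C at the Z-disc. Its median was 88.3 CPM in Sham/Air (81.0 to 117), 86.1 CPM in Sham/Benzene (79.9 to 90.9), 104 CPM in TAC/Air (97.9 to 107) and 149.5 CPM in TAC/Benzene (140.4 to 175). TAC/Benzene lay above the 3 other groups. TAC/Air overlapped with Sham/Air only through Sham/Air replicate 1 at 117 CPM. Relative to sham, the TAC log2 fold change was 0.17 ± 0.08 in air, or 0.24 ± 0.06 without that replicate, and 0.86 ± 0.08 in benzene. For benzene the log2 fold change was 0.59 ± 0.08 in TAC hearts, and in sham hearts -0.10 ± 0.08, or -0.02 ± 0.06 without Sham/Air replicate 1.

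Des encodes desmin, the intermediate filament protein of muscle. Its median was 2016 CPM in Sham/Air (989 to 2269.6), 1953 CPM in Sham/Benzene (1518 to 2270.1), 2921 CPM in TAC/Air (2151 to 3386) and 3733 CPM in TAC/Benzene (3061 to 3849). TAC/Benzene lay above both sham groups and overlapped with TAC/Air, and TAC/Air overlapped with both sham groups through its lowest library, replicate 4. The log2 fold change of TAC was 0.60 ± 0.16 in air, or 0.47 ± 0.11 without Sham/Air replicate 1, whose 989 CPM was the lowest value, and 0.90 ± 0.16 in benzene. Benzene against air gave 0.31 ± 0.15 in TAC hearts.

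Nrap encodes a nebulin-related anchoring protein of the intercalated disc and of growing myofibrils. Its median was 756 CPM in Sham/Air (691 to 1009), 689 CPM in Sham/Benzene (584 to 779), 927 CPM in TAC/Air (789.9 to 1055) and 1159 CPM in TAC/Benzene (911 to 1201). TAC/Benzene lay above Sham/Benzene and overlapped with TAC/Air and with Sham/Air replicate 1. TAC/Air lay above Sham/Air only once Sham/Air replicate 1, at 1009 CPM, was left out. TAC gave a log2 fold change of 0.24 ± 0.10 in air, or 0.32 ± 0.08 without that replicate, and 0.68 ± 0.10 in benzene. With an adjustment for GC content and length, described below, the value in air was 0.10 ± 0.14, or 0.35 ± 0.05 without that replicate. For benzene the log2 fold change was 0.24 ± 0.10 in TAC hearts.

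**Figure D2:**
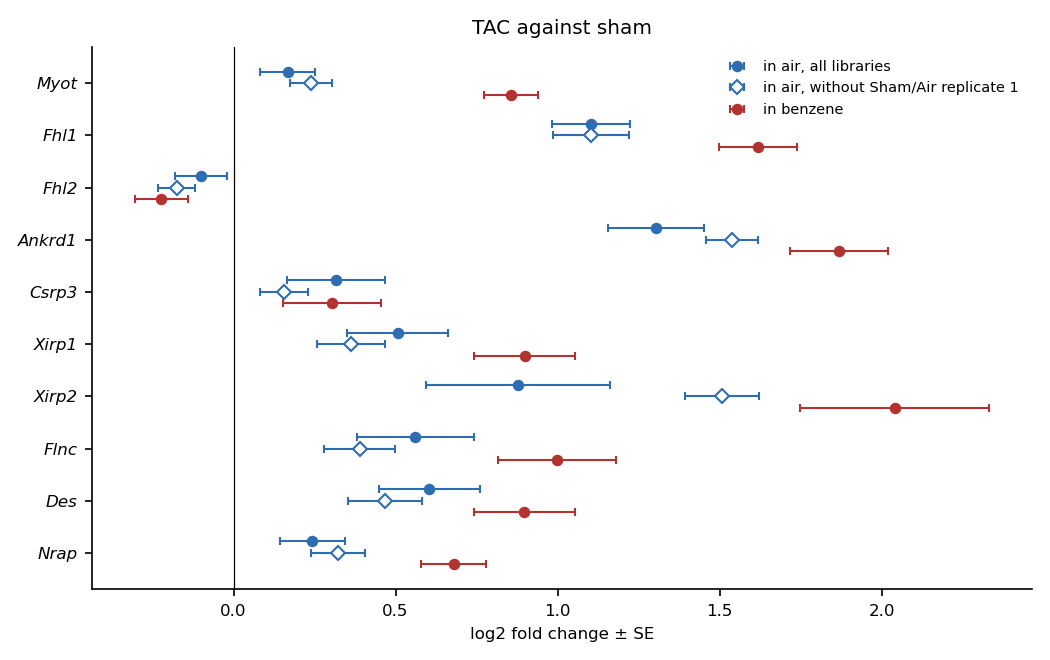
Log2 fold change of TAC against sham (horizontal axis) with its SE for each member, in air (all libraries, then 5 of 6 with Sham/Air replicate 1 left out) and in benzene. Every value but those of Fhl2 lies above 0; leaving out the replicate moves Xirp2 in air from 0.88 to 1.51 and Ankrd1 from 1.30 to 1.54.

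The comparison of TAC with sham asked what pressure overload did to the ventricle under each exposure. In air, the median log2 fold change of the members was 0.53, against -0.01 over all 13571 genes, and 9 of the 10 values were above 0. By edgeR's quasi-likelihood test with a Benjamini-Hochberg adjusted p under 0.05 across all genes, 6 members were past the threshold, all higher: Fhl1, Ankrd1, Xirp1, Xirp2, Flnc and Des. The share of all tested genes past it was 16.2%, and since the members were chosen with this contrast known, nothing is read from the count. Without Sham/Air replicate 1 the count was 9, with Myot and Nrap higher and Fhl2 lower as well, while 23.4% of all genes passed. Leaving out Sham/Air replicates 2 to 6 or TAC/Air replicates 1 to 3, 5 or 6, one at a time, ended the call of Xirp2, Flnc or Xirp1 and left 4 or 5 members. Over these libraries left out singly the log2 fold change stayed between 0.76 and 0.92 for Xirp2, 0.51 and 0.63 for Flnc, and 0.46 and 0.57 for Xirp1. With the 6 closest pairs of libraries summed, 2 members passed, Fhl1 and Ankrd1, and 10.2% of all genes. For 3 members, Fhl1, Ankrd1 and Xirp1, all TAC/Air libraries lay above all Sham/Air libraries, as they did in one direction or the other for 9.49% of all genes. Without Sham/Air replicate 1, 6 members lay above and 1 below, against 15.3% of all genes.

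In benzene, the median log2 fold change of the members was 0.90, against 0.00 over all genes. All but Fhl2 and Csrp3 passed, 8 members, all higher, against 16.6% of all genes. These 2 depended on the setting: Fhl2 was lower past the threshold with GC and length offsets, by DESeq2 and limma-voom, in a fit of only the groups compared, and without Sham/Benzene replicate 3, at log2 fold changes from -0.20 to -0.26. Csrp3 was higher past it by limma-voom, in that same fit of fewer groups, and with the offsets once Sham/Air replicate 1 was left out. The groups did not overlap for any of the 10 members, 9 of them higher and Fhl2 lower, as for 13.9% of all genes. The 2 comparisons of TAC with sham use different sham groups. Sham/Air replicate 1 is not among the groups of the second one. It enters there through steps shared by all libraries, such as the estimate of spread and, where used, the offsets.

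The comparison of benzene with air asked whether inhaled benzene altered the ventricle in sham or in TAC hearts. In sham hearts, no member passed by edgeR's quasi-likelihood test, and none by DESeq2 or limma-voom, while 2 had an unadjusted p under 0.05 by edgeR. The share of all genes at that unadjusted level is not given here, so nothing is read from those 2. DESeq2 gave no adjusted p for Xirp2, at a log2 fold change of -0.67, so Xirp2 could not pass by it. Over all genes 0.0221% passed by edgeR, and the 2 lower ones were lung epithelium markers. The groups overlapped for all 10 members, and their median log2 fold change was 0.08, or -0.01 without Sham/Air replicate 1. In TAC hearts, all 10 values were above 0, with a median of 0.42 against 0.00 over all genes. Myot and Fhl1 passed, against 0.582% of all genes. The TAC/Benzene libraries lay above all TAC/Air libraries for 5 members, Myot, Fhl1, Xirp1, Xirp2 and Flnc, against 2.70% of all genes in either direction. With the 6 closest pairs summed, Myot alone passed, and 0.103% of all genes. The log2 fold changes were then 0.62 ± 0.11 for Myot and 0.68 ± 0.14 for Fhl1.

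**Figure D3:**
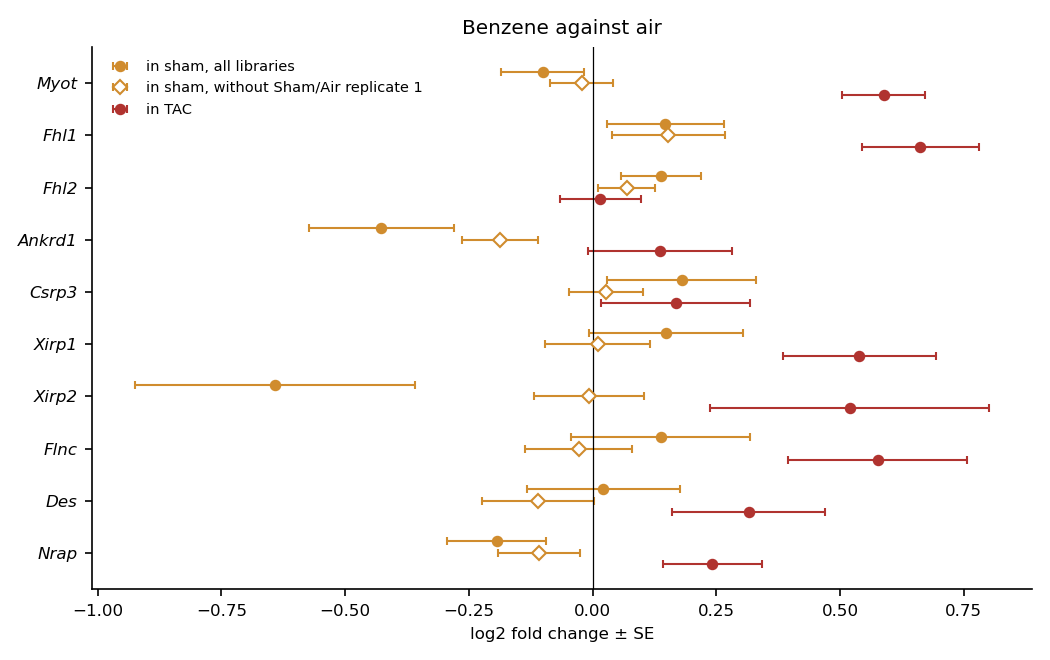
Log2 fold change of benzene against air (horizontal axis) with its SE for each member, in sham hearts (all libraries, then Sham/Air replicate 1 left out) and in TAC hearts. In TAC hearts Fhl1 (0.66) and Myot (0.59) lie highest and Fhl2 (0.02) near 0; in sham hearts the values of Xirp2 (-0.64) and Ankrd1 (-0.43) move to -0.01 and -0.19 without the replicate.

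The surgery by benzene interaction asks whether the log2 fold change of TAC was different in benzene and in air. The difference was 0.69 ± 0.12 for Myot, the member past the threshold, against 0.169% of all genes. It was 0.61 ± 0.09 without Sham/Air replicate 1, and with the closest pairs summed 0.74 ± 0.15, no longer past the threshold. The Xirp2 difference was 1.16 ± 0.40 over 24 libraries and 0.53 ± 0.15 over the 23 that leave out Sham/Air replicate 1. That of Ankrd1 went from 0.56 ± 0.21 to 0.33 ± 0.11. Flnc went the other way, from 0.44 ± 0.26 to 0.61 ± 0.15, as did Xirp1, from 0.39 ± 0.22 to 0.53 ± 0.15. The median over the members was 0.44 with and 0.47 without the replicate. All 4 groups enter this value, so it is not independent of the comparisons above.

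The members differ in base composition, and the values of some of them shifted within groups with the GC trend of the library. The longest transcript of Xirp2 is 42.2% GC and 11979 bases long, and that of Myot 45.8% GC and 2209 bases. At the other end, the transcript of Flnc is 58.4% GC and 9038 bases long, that of Xirp1 57.0% and 5839, and that of Des 56.5% and 3028. In TAC/Air, the 3 libraries with the highest rank correlation with GC content, replicates 1 to 3 (0.51 to 0.54), had the 3 highest Des values, 3162 to 3386 CPM, and the 3 lowest Fhl1 values, 311 to 327 CPM. The other 3 TAC/Air libraries (-0.53 to -0.15) had Des between 2151 and 2680.3 CPM and Fhl1 between 364 and 467 CPM. An adjustment of each library for its trend with GC content and length, chosen after seeing the data, changed the spread unevenly. In TAC/Air the SD of log2 CPM went from 0.26 to 0.09 for Des and from 0.16 to 0.03 for Flnc. For Fhl1, whose transcript is 50.0% GC, it went from 0.22 to 0.24.

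**Figure D4:**
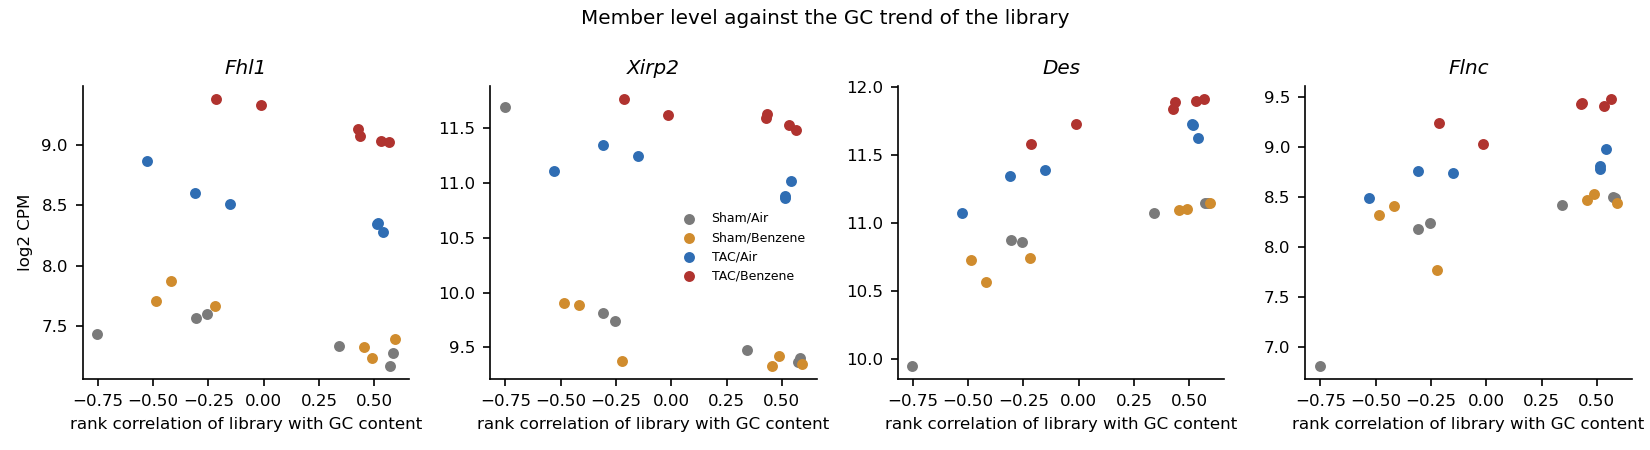
Log2 CPM of Fhl1, Xirp2, Des and Flnc (vertical axes, not starting at 0) against the rank correlation of each library's deviation with GC content (horizontal axes), with 1 point per library coloured by group. In TAC/Air the 3 libraries at the right have the highest Des and Flnc values and the lowest Fhl1 and Xirp2 values; the far left point is Sham/Air replicate 1, at a rank correlation of -0.75.

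With this adjustment, the log2 fold change of benzene against air in TAC hearts was 0.61 ± 0.05 for Myot, 0.66 ± 0.12 for Fhl1, 0.53 ± 0.13 for Xirp2, 0.47 ± 0.06 for Flnc, 0.46 ± 0.07 for Xirp1 and 0.27 ± 0.06 for Des. These 6 members passed, against 1.77% of all genes. For the interaction 5 passed, Myot, Xirp1, Xirp2, Flnc and Des, against 0.398% of all genes. Against the unadjusted fit, the value in TAC hearts moved from 0.58 ± 0.18 to 0.47 ± 0.06 for Flnc and from 0.54 ± 0.15 to 0.46 ± 0.07 for Xirp1. The adjustment did not bring Csrp3 of Sham/Air replicate 1 nearer to its group, since the SD of log2 CPM in Sham/Air was 0.55 before it and 0.64 after it. For Nrap it went from 0.20 to 0.46, and for Fhl1 from 0.17 to 0.19. For the other members the SD in Sham/Air fell. It went from 0.65 to 0.06 for Flnc, from 0.50 to 0.07 for Xirp1 and from 0.46 to 0.12 for Des. For Xirp2 it went from 0.89 to 0.42, and for Fhl2 from 0.20 to 0.07. Those of Ankrd1 and Myot went from 0.43 to 0.38 and from 0.20 to 0.03.

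Levels of the members were compared across libraries as Pearson correlations of log2 CPM over the 23 libraries without Sham/Air replicate 1, as a description. The points share the group differences and the GC trend of their library. Xirp1 and Flnc had the highest correlation between members, 0.99, followed by Fhl1 with Xirp2 at 0.97. Des and Nrap were at 0.96, as were Flnc and Nrap. Over all 24 libraries Xirp1 with Flnc was again at 0.99, while Fhl1 with Xirp2 was at 0.87, Des with Nrap at 0.69 and Flnc with Nrap at 0.60. Fhl2 was negatively correlated with each of the other 9 over these 23 libraries, from -0.83 with Xirp2 to -0.19 with Csrp3. With Sham/Air replicate 1 included, the correlation of Fhl2 with Csrp3 was 0.40, and those with Flnc, Xirp1 and Des were -0.04, -0.08 and -0.09.

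Among all other genes whose mean was 10 CPM or more, genes with the most similar patterns over the 24 libraries were named for each member in the same way. For Xirp2 the first was Enah (0.99), which encodes an actin filament regulator of the Ena/VASP family, then Pam and Sorbs2. Without Sham/Air replicate 1 the correlation of Enah was again 0.99. For Ankrd1 the first was Tgfb2 (0.97), a transforming growth factor beta ligand, then Itgbl1 and Postn, the last encoding the matrix protein periostin. For Des the first was Tgm2 (0.99), transglutaminase 2, with Ctsd, the gene of the lysosomal protease cathepsin D, also among the genes named (0.98). For both Xirp1 and Flnc the genes named were Rrp12 (0.96 for each) and Alpk3 (0.96 and 0.97), the latter a cardiomyopathy gene. For Myot and Fhl1 the first was Bnip3 (0.94 and 0.96), a mitochondrial mitophagy receptor, followed by Pdlim5 and Clu for Myot and by Abra and Slc35f5 for Fhl1.

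These names depended on Sham/Air replicate 1 for several members. Over 23 libraries the first 3 were Pdlim5, Sorbs2 and Enah for Fhl1, Vdac1, Sod2 and Ndufb5 for Fhl2, and Ehd4, Nppa and Myh7 for Ankrd1. For Csrp3 they were Fam162a, Cystm1 and Cst3. Sqstm1, which encodes the autophagy receptor p62, was first at 0.97 over 24 libraries and 0.88 over 23, and Cd63 and Eno1 went from 0.96 to 0.85 and 0.81. For Fhl2 the first was BC004004 (0.93 over 24 and 0.90 over 23 libraries), then Itgb1bp2, which encodes the muscle integrin partner melusin, and Dcaf4. For Nrap the first over 24 libraries was Map4 (0.91, and 0.97 over 23), then Eif4a1 and Uck2. Over 23 libraries Tgm2 came first for Nrap (0.97, against 0.67 over 24). For Flnc the first over 23 libraries was Rapgef1, then Ptpn11 (0.96 for each).

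Of the genes related to the members, 4 lists were examined, chosen with earlier results of these data known. The genes named from them have the smallest p-values of each list, so their p-values are given as a description. Among 17 tested paralogues of the members, 3 rose after TAC in air and 5 in benzene, with none lower, against 16.2% and 16.6% of all genes past the threshold in either direction. Ankrd23, a relative of Ankrd1 in the titin-binding ankyrin repeat family, rose from 549 ± 177 to 1275 ± 209 CPM in air (n = 6 per group). Its log2 fold change was 1.21 ± 0.18 in air (edgeR adjusted p = 2.43e-05) and 1.30 ± 0.18 in benzene (edgeR adjusted p = 8.33e-06). The third member of that family, Ankrd2, was far lower, at 0.66 ± 0.37 CPM in Sham/Benzene and 2.50 ± 0.78 CPM in TAC/Benzene, a log2 fold change of 1.89 ± 0.34 (edgeR adjusted p = 0.000217). Csrp2, a LIM protein related to Csrp3 and known from smooth muscle, rose by 0.85 ± 0.15 in air and 0.80 ± 0.15 in benzene on the log2 scale (edgeR adjusted p = 0.000272 and 0.000382). Vim, the vimentin gene of mesenchymal cells and a relative of Des, rose by 0.55 ± 0.11 in air (edgeR adjusted p = 0.000619), in the comparison in which 4 of 6 fibroblast markers were higher. The median log2 fold change of the 17 was 0.23 in air and 0.24 in benzene.

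Among 29 tested genes of the Z-disc and sarcomere scaffold, 3 rose and 2 fell in air, and 5 rose and 1 fell in benzene, with list medians of -0.05 and 0.18, where 16.2% and 16.6% of all genes passed. Synpo2l, an actin-bundling Z-disc protein also called CHAP, rose from 127 ± 23 to 400.2 ± 49.5 CPM in air, by 1.65 ± 0.12 on the log2 scale (edgeR adjusted p = 1.83e-10). In benzene it rose by 1.83 ± 0.12 (edgeR adjusted p = 2.33e-11). The LIM domain genes Pdlim1 and Pdlim3 rose by 0.54 ± 0.08 and 0.58 ± 0.12 in air (edgeR adjusted p = 2.06e-05 and 0.00111). Fhod3, a formin that supports sarcomere assembly, fell by 0.36 in air and by 0.22 in benzene (edgeR adjusted p = 0.000350 and 0.0227). The call in benzene was lost without Sham/Benzene replicate 2 or 5 or TAC/Benzene replicate 4, with log2 fold changes of -0.19 to -0.20, and with the closest pairs summed. Cmya5, or myospryn, fell by 0.58 in air (edgeR adjusted p = 0.0110), and by 0.32 without Sham/Air replicate 1.

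In benzene, the small heat shock protein gene Hspb6 rose from 741 ± 67.2 to 1339.9 ± 147 CPM after TAC, by 0.85 ± 0.11 on the log2 scale (edgeR adjusted p = 9.64e-07). Pdlim5 rose by 0.62 ± 0.10 (edgeR adjusted p = 6.30e-05). For benzene in TAC hearts, 2 of the 29 passed, against 0.582% of all genes, and no gene of the other 3 lists did. Hspb6 rose by 0.52 ± 0.10 (edgeR adjusted p = 0.0142) and Cryab, the alpha B-crystallin chaperone of desmin and titin, by 0.38 ± 0.09 (edgeR adjusted p = 0.0366). Both calls were lost with the closest pairs summed and with a replicate block. With GC and length offsets, 2 of the 29 passed, both higher. So did 1 paralogue higher, 1 paralogue lower and 1 regulator of mechanical signalling higher. Over these settings the log2 fold changes were 0.49 to 0.55 for Hspb6 and 0.35 to 0.40 for Cryab. The call of Cryab was also lost without any one of 9 libraries, TAC/Air replicates 3 to 6 and TAC/Benzene replicates 1 to 5, at 0.31 to 0.39.

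Among 24 tested costamere and intercalated disc genes, 1 rose and 1 fell in air, and 2 rose in benzene, against the same 16.2% and 16.6% of all genes. Zyx, which encodes the focal adhesion protein zyxin, rose by 0.75 ± 0.22 in air (edgeR adjusted p = 0.0198). This call was lost without TAC/Air replicate 1, at 0.68, and with the closest pairs summed. Ctnna1, alpha-catenin, fell by 0.32 in air (edgeR adjusted p = 0.00651). The calls of Zyx, Ctnna1 and Cmya5 in air also ended in a fit of only the groups compared, at 0.75, -0.32 and -0.58. In benzene, the desmosomal plakophilin gene Pkp2 rose by 0.39 ± 0.11 and Parva, the actin-binding partner of integrin-linked kinase, by 0.27 ± 0.08 (edgeR adjusted p = 0.0145 and 0.0166), and neither passed with the closest pairs summed. The list medians were -0.04 and 0.09.

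Among 21 tested regulators of mechanical signalling and their known targets, 4 rose in each exposure and none fell, beside 16.2% and 16.6% of all genes. The YAP and TEAD target Ccn2, connective tissue growth factor, went from 99.1 ± 4.14 to 607 ± 17.7 CPM in air, a log2 fold change of 2.62 ± 0.09 (edgeR adjusted p = 2.21e-17), and rose by 2.37 ± 0.09 in benzene (edgeR adjusted p = 8.50e-17). Rcan1, a calcineurin inhibitor that calcineurin and NFAT are known to induce, rose by 1.63 ± 0.11 in air and 1.86 ± 0.11 in benzene (edgeR adjusted p = 9.55e-12 and 6.60e-13). Ccn1, also known as a YAP target, rose by 0.77 ± 0.11 and 1.00 ± 0.11 (edgeR adjusted p = 9.01e-06 and 9.96e-08). The list medians were 0.03 and 0.07. Of the 91 tested genes of the 4 lists, none passed for benzene in sham hearts by edgeR, DESeq2 or limma-voom, and 5 had an unadjusted p under 0.05. None passed for the interaction by edgeR, 1 by DESeq2 and 4 by limma-voom, and 10 had an unadjusted p under 0.05. The shares of all genes at that unadjusted level are not given here, so nothing is read from the 5 and the 10.

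**Figure D5:**
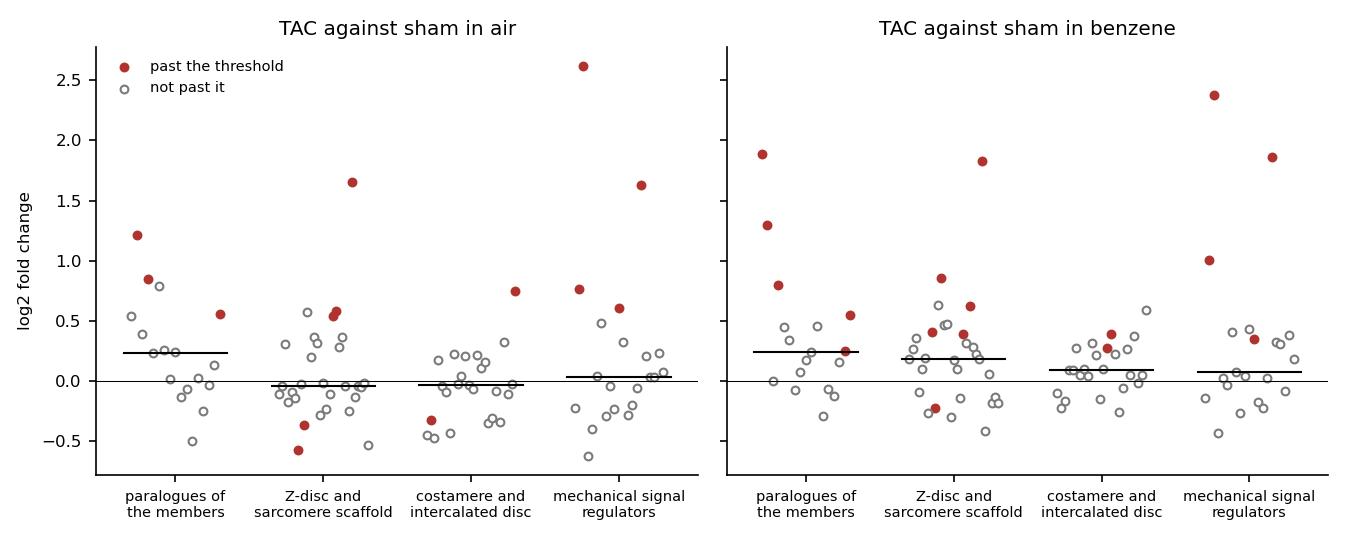
Log2 fold change of TAC against sham (vertical axis) for each tested gene of the 4 related lists, in air and in benzene, filled where the gene passed the threshold, with the list median as a line. The highest points are Ccn2 (2.62 in air, 2.37 in benzene), and the list medians lie between -0.05 and 0.24.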

How the data were processed

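The values, as the authors deposited them, are raw read counts, whole numbers for each gene symbol in each of the 24 libraries, with no scaling applied. Per the submitters' processing notes, the mm9 build, STAR, FastQC 0.11.9 and DESeq2 were used. What counted the reads, with which annotation and strandedness, is not given in the sources used here. Genes that overlap or share reads cannot be told apart where the counting could mix them.

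Genes were kept by edgeR 4.0.16 (R 4.3.3) (count minimum 10, total minimum 15), so that 13571 genes were tested and the genes left out held 0.0747% of the counts. Library sizes were scaled by TMM, and CPM used those sizes, with a prior count of 2 on the log2 scale. The quasi-likelihood test took all 24 libraries in 1 model with a term for each group, and a gene passed at a Benjamini-Hochberg adjusted p under 0.05 over all tested genes. All groups came from the sample titles. The fitting script was tested on simulated data.

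The members and lists were chosen with earlier results of these data known. Named genes are the members in every comparison, up to 3 genes per direction with the smallest p among those past the threshold in each related list and comparison, the 3 most correlated genes for each member, and Nppa and Myh7. A gene that this rule names is not reported here. Alternatives were DESeq2 1.42.0, limma-voom with quality weights (limma 3.58.1), relative log expression size factors, no filter, only the groups compared, a replicate block and each library left out. Chosen after seeing the data were offsets for GC content and length (loess, span 0.5, mean count 50 or more, longest GENCODE transcript, 96.6% of symbols matched), with and without Sham/Air replicate 1 or the block, and the closest pairs summed to 18 libraries. The variance ratio behind those pairs used genes with at least 20 counts over the pair.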

Additional observations from a re-analysis of the deposited data

Results flagged for a closer look

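Values that stood far from the other 5 of their group, by Dixon's test on the gap to the nearest value, were found in 9 of 40 combinations of member and group, where chance gives about 1 in 20. Of these, 8 were in Sham/Air replicate 1, the library with the lowest total count. Its value was higher than the others for Ankrd1 (4099 CPM, next 2060.1), Xirp2 (3301 CPM, next 903) and Nrap (1009 CPM, next 782). It was lower for Fhl2 (1540 CPM, next 2078), Csrp3 (552.9 CPM, next 1339.6), Xirp1 (85.8 CPM, next 170.5), Flnc (112.5 CPM, next 289) and Des (989 CPM, next 1860.3). The remaining value was that of Flnc in Sham/Benzene replicate 1, at 218.4 CPM against 319 for the next library. These are values without the adjustment for GC content and length. With it, the SD of log2 CPM in Sham/Air was smaller for Flnc, Xirp1, Des, Xirp2, Fhl2 and Ankrd1. It was larger for Csrp3 and Nrap.

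The log2 fold change of TAC in benzene exceeded that in air by 0.69 ± 0.12 for Myot, past the threshold of the interaction test by edgeR. With the closest pairs of libraries summed it was 0.74 ± 0.15 and not past it, and Myot was chosen with these differences known.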

How the results depend on the processing

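Among the members and named related genes past the threshold, no alternative that was run reversed the direction. The counts past the threshold depended on the setting, and the cause was not tested. With GC and length offsets, 3589 genes passed for TAC in air (2193 in the original fit), 3636 for TAC in benzene (2257), 17 for benzene in sham (3), 240 for benzene in TAC (79) and 54 for the interaction (23). Members then numbered 6 for benzene in TAC and 5 for the interaction, and related genes 36, 42 and 5 for TAC in air, TAC in benzene and benzene in TAC. With the same offsets and no Sham/Air replicate 1, all genes numbered 4236, 4834, 37, 616 and 185 over the 5 comparisons in that order, members 7 for benzene in TAC and 7 for the interaction, and related genes 45, 54, 1, 12 and 6. By limma-voom, all genes numbered 3739, 4497, 6, 556 and 93, members 7 and 3 in the last 2, and related genes 32, 48, 11 and 4, without benzene in sham. DESeq2 gave 28, 171 and 57 genes for benzene in sham, benzene in TAC and the interaction, and 27, 4 and 1 related genes for TAC in benzene, benzene in TAC and the interaction. DESeq2 gave no adjusted p for Xirp2 in any comparison. A fit of only the groups compared gave 1300, 3415, 1 and 274 genes, 2 members for TAC in air and 5 for benzene in TAC, and 38 and 6 related genes for TAC in benzene and benzene in TAC. With the closest pairs summed, 1382, 1351, 1, 14 and 5 genes passed, 2 members for TAC in air, 1 for benzene in TAC and 0 for the interaction, and 0 related genes for benzene in TAC. Without the filter, 1 gene passed for benzene in sham and 1 related gene for benzene in TAC.

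No pairing by replicate number was seen in the deviations from the group means. Those of same-numbered libraries correlated from -0.53 to 0.47 (median -0.05, 36 pairs, 9 of them over 0.1). Of 24 libraries, 1 correlated best with its own number. The deviations also hold the GC trend of each library, so this check cannot tell whether same-numbered libraries were paired. With a replicate block, 1867, 1951, 2, 46 and 14 genes passed, members numbered 6, 8, 0, 2 and 1, and related genes 13, 15, 0, 0 and 0. With the block and the GC and length offsets, 3390 genes passed for TAC in benzene and 168 for benzene in TAC, 6 members for benzene in TAC and 2 for the interaction, and 32 and 40 related genes for TAC in air and in benzene.

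Each library was left out only for comparisons that use its group, 12 libraries per comparison and 24 for the interaction. Leaving out 1 such library gave 1911 to 3171 genes for TAC in air, 1918 to 2222 for TAC in benzene, 1 to 5 for benzene in sham, 52 to 69 for benzene in TAC and 15 to 49 for the interaction. The ranges for TAC in benzene and benzene in TAC thus never leave out Sham/Air replicate 1, which shares their estimate of spread. Fits of only the groups compared, which exclude it, gave 3415 and 274 genes, and 10 and 5 members. The highest counts for TAC in air and the interaction were those without Sham/Air replicate 1. Related genes numbered 12 to 25 for TAC in air, 1 to 3 for benzene in TAC and 0 to 2 for the interaction. Members numbered 4 to 9, 8 to 9, 0, 2 and 1. Depth was lowest in Sham/Air replicate 1, and counts do not show whether libraries share a mouse.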
